A study of Mus musculus with 9 samples.

Results

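The regions described here were the broad accessible chromatin peaks of mouse cardiomyocytes, taken as every peak 3000 bp or more in width (end minus start) on chromosomes 1 to 19. There were 2115 such peaks among 25915 in the deposited table, beside 23508 narrower peaks on the same chromosomes, and another 86 peaks of that width on other chromosomes and scaffolds were left out. The width rule itself used no counts, but the peak edges were set by the authors' peak calling on sequenced reads. How far the widths depend on the levels in these libraries was not tested. A wider window also collects more reads and is more likely to pass a test. The assay was ATAC-seq, which uses a transposase to cut and tag open DNA for sequencing. The 9 libraries, labelled as isolated cardiomyocytes, came from mice of the outbred CD1 (ICR) strain with no genotype or treatment given in the labels, at postnatal day 1 (P1), day 14 (P14) and day 56 (P56), with 3 libraries a stage. Each library pooled 12 hearts at P1 or 6 to 7 hearts at the later stages, and nuclei were stained for Pcm1, a centriolar satellite protein used as a marker of cardiomyocyte nuclei in the heart, and sorted on it. Nothing in the labels says whether the 3 libraries of a stage come from separate litters or days, so p-values measure only the spread between these pools. The growth protocol shared by all libraries speaks of hearts taken after surgery, while the sample labels name no surgery group. In a pool of sorted nuclei, more nuclei with an open site and more cuts per open nucleus cannot be told apart.

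Most accessible elements, such as enhancers and promoters, span a short nucleosome-free stretch, and wide peaks can form where several such stretches lie close together, as in clustered enhancers, in promoters with flanking open chromatin and in dense arrays of small genes. In the heart, wide domains of open and acetylated chromatin are known at genes for the contractile apparatus and at cardiac transcription factors. The mouse cardiomyocyte leaves the cell cycle and changes its contractile and metabolic gene set in the weeks after birth, with the slow skeletal troponin I of the fetal heart giving way to the cardiac form.

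Promoter DNA is shown first for the broad peaks that differed between P56 and P1 and contained an annotated gene start. A gene can have several such starts, and the one shown need not be its first. The 5 sequences are the 250 bases before the start site, 5′ to 3′ on the gene's strand, from RefSeq on GRCm38.p6, and capitals mark matches to the searched motifs. Tnni1 (slow skeletal troponin I), chr1:135799171-135799420 on the plus strand, lay in a peak that fell. Fbxo31 (an F-box subunit of a ubiquitin ligase), chr8:121578807-121579056 on the minus strand, Hes7 (a repressor of the segmentation clock), chr11:69120203-69120452 on the plus strand, Bdh1 (a ketone body dehydrogenase), chr16:31428503-31428752 on the plus strand, and the predicted gene Gm51959, chr12:110986868-110987117 on the plus strand, lay in peaks that rose.
Tnni1: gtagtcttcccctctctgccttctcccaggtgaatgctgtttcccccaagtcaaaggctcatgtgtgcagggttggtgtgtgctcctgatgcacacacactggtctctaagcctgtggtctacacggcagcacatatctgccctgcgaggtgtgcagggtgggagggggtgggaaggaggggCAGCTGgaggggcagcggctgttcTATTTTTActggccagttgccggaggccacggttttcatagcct
Fbxo31: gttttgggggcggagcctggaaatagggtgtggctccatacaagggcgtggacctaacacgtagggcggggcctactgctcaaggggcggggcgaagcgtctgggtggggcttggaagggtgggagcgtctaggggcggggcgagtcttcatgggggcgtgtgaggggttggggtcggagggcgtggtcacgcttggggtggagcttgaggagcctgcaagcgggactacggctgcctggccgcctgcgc
Hes7: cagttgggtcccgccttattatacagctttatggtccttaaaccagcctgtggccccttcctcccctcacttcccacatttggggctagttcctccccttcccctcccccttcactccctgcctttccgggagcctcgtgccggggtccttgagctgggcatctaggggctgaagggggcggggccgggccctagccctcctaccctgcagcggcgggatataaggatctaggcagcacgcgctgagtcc
Bdh1: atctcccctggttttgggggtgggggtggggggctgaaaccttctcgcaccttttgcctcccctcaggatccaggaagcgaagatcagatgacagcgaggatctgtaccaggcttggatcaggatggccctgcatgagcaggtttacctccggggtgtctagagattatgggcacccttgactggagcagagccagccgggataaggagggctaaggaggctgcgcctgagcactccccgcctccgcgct
Gm51959: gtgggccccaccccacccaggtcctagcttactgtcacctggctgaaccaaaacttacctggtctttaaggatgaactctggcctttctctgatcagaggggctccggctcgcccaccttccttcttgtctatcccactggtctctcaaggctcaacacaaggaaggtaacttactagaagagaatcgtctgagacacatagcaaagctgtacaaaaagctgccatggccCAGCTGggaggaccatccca
The capitals in Tnni1 are an E-box, CAGCTG, that begins 68 bases before the start site and a MEF2 motif match, TATTTTTA, that begins 44 bases before it. Gm51959 held the E-box 20 bases before its start site, and the other 3 sequences held no match. Motifs were searched by these letters on both strands, and each share is over the 753 genes with such a promoter inside a broad peak, against that over the 25742 genes with a promoter in the RefSeq table. The former used a start whose promoter lay in the peak, the latter each gene's first listed start, in a peak or not. Promoters inside narrower peaks were not compared. The E-box letters were in 14.7% against 12.8%. The MEF2 motif, TATTTNTA, was in 2.79% against 5.39%, and a MEF2 match with A at the free base also holds a TATA box on the other strand. The TATA box, searched as TATAAA, was in 5.44% against 13.0%. The GATA factor motif, searched as AGATAA, was in 3.59% against 10.2%, and the TEAD motif, searched as GGAATG, in 13.1% against 12.5%. The NRF1 motif, searched as GCGCATGC, was in 3.32% against 2.30%, and the ERR motif, searched as AAGGTCA, in 4.38% against 4.06%. Promoters inside broad peaks had a median GC content of 61.6% and 15.0 CpG sites in 250 bases, against 52.4% and 6.00 over all genes. A motif match describes letters and is not a measured binding site. The RefSeq promoter table covered chromosomes 1 to 17 and 19, so start site shares are given for those.

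The broad peaks had a median width of 3817 bp, from 3000 to 9128 bp, against a median of 1422 bp over all peaks. Their median of mean counts per library was 67.7, against 23.7 over all peaks, and the lowest mean count in the table was 10.0. At the width limit, the narrowest members were chr13:80535430-80538430 (3000 bp), chr5:121710842-121713844 in Atxn2 (3002 bp) and chr16:4593859-4596862 in Glis2 (3003 bp), with 9.27, 30.6 and 27.9 CPM per kb. Just below it were peaks of 2999 bp in Zcchc14, of 2997 bp on chromosome 18 and of 2996 bp on chromosome 5, with 22.0, 4.87 and 4.01 CPM per kb. Levels are CPM, the counts per 1e6 counts in the tested peaks, scaled by TMM (trimmed mean of M-values), and are given per kb of width wherever peaks are compared with each other. The median level was 24.7 CPM per kb, from 1.54 to 723, close to the median of 22.7 in narrower peaks.

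The levels per kb fell into 2 ranges. Of the members, 1478 (69.9%) had 15 CPM per kb or more and 637 (30.1%) had less, whereas 10.4% of narrower peaks had less. The limit of 15 was set after the values were seen, and 101 members lay within 20% of it. The lower range held the wider peaks, with a median width of 4221 bp against 3715 bp, and 52.9% of members of 5000 bp or more lay in it. A gene start lay inside 7.41% of the lower range and 40.0% of the upper range, and a protein-coding gene overlapped 30.1% and 81.7%. The lower range was thus mostly wide, thinly covered sequence outside protein-coding genes, and the upper range mostly gene-rich. Over all members on chromosomes with known start sites, 32.2% had a start within 1 kb and 40.3% within 5 kb, against 30.1% and 36.0% of narrower peaks.

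**Figure D1:**
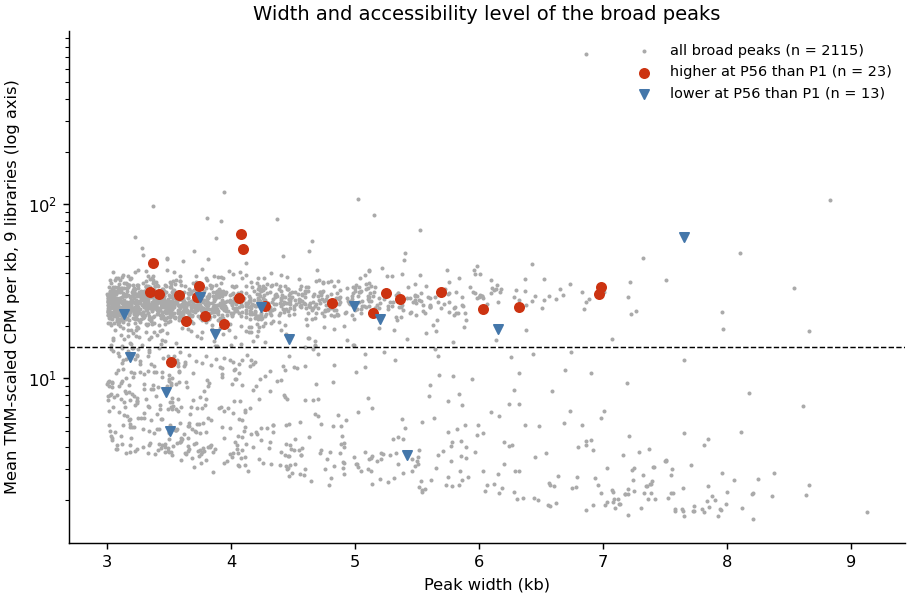
Width in kb (x axis) against mean TMM-scaled CPM per kb over the 9 libraries (y axis, log scale) for the 2115 broad peaks, with the 23 peaks called higher at P56 than P1 as filled circles, the 13 called lower as triangles and the limit of 15 CPM per kb as a dashed line. The points form a dense band near 25 CPM per kb and a sparser cloud under the line that reaches down to 1.54 CPM per kb; 1 of the 23 higher and 4 of the 13 lower peaks lie under the line.

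The 8 widest members ranged from 8381 to 9128 bp and showed how unlike each other wide peaks were. The widest, chr19:9828364-9837492, 10066 bp from Scgb2a2, held 1.71 CPM per kb, and the wide peak in Hrnr held 2.43. Peaks 200450 bp from Lama2 and 233846 bp from Robo1, both far from any named protein-coding gene, held 2.15 and 2.85 CPM per kb. Distances to the nearest protein-coding gene leave out genes with predicted symbols such as Gm and Rik. By contrast chr4:3078466-3087297, also among the 8 widest, held 105 CPM per kb. None of the 8 passed the test in any comparison.

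The highest level per kb was that of chr17:39842524-39849387, which overlaps Rn18s-rs5, an annotated ribosomal RNA related pseudogene. Its reads can belong to other copies of the same sequence, and how such reads were placed is not given in the sources used here. Its TMM-scaled CPM was 3283, 4353 and 3787 at P1, 5343, 7526 and 6654 at P14, and 4763, 3160 and 5759 at P56. Every P14 library was above every P1 library, while the P56 libraries overlapped both other stages, and neither comparison passed edgeR's quasi-likelihood test (P14 with P1: log2 change 0.77, adjusted p = 0.456). Alike in that order were chr2:98661776-98665722, 1030104 bp from the nearest named protein-coding gene, with means of 355, 650 and 386 CPM at P1, P14 and P56, and chr17:13549856-13554227 in the long noncoding locus 2700054A10Rik, with 255, 498 and 329 CPM. These were the 3 members with the smallest p for a rise from P1 to P14, and edgeR's adjusted p was 0.325 for the peak on chromosome 2 and 0.200 for that at 2700054A10Rik. Among the highest per kb were also 2 peaks at named protein-coding genes, at Myl2, the ventricular myosin light chain, with 86.8 CPM per kb, and at Josd2, a deubiquitinase, with 82.7. Peaks that contained starts of 1600014C10Rik and 4931408C20Rik held 107 and 97.7 CPM per kb.

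As a group, the broad peaks took a larger share of each library's peak counts with age. It was 18.6%, 18.2% and 17.7% in the P1 libraries, 18.7%, 18.8% and 18.8% in those of P14, and 19.1%, 19.5% and 19.3% in those of P56. The means were 18.2% ± 0.482, 18.7% ± 0.0653 and 19.3% ± 0.199 (SD, n = 3 each), and the stages did not overlap. An exact permutation test over all 1680 assignments of libraries to stages gave p = 0.00357, the smallest it can give, and 0.00952 after Benjamini-Hochberg adjustment over the 8 quantities tested this way; 3 libraries against 3 cannot give p below 0.1, and each pair of stages gave p = 0.1. Without the ribosomal RNA peak the shares were 17.9%, 18.2% and 19% (exact permutation p = 0.0143, adjusted 0.0229).

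The level per kb of broad peaks relative to narrower peaks moved the same way. The log2 ratio of the mean CPM per kb was -0.121 ± 0.0289 at P1, -0.0739 ± 0.0105 at P14 and 0.00980 ± 0.0384 at P56 (SD, n = 3 each; exact permutation p = 0.00357, adjusted 0.00952). The ratio of medians was -0.0113, 0.0715 and 0.117 (exact permutation p = 0.0107, adjusted 0.0214). The gain lay in the upper range, whose share of counts was 16.3% ± 0.263, 17% ± 0.232 and 18% ± 0.532 (SD, n = 3 each; exact permutation p = 0.00357). The lower range held 2.25%, 1.76% and 1.70% at P1, 1.85%, 1.52% and 1.73% at P14, and 1.61%, 0.975% and 1.50% at P56, which did not pass (exact permutation p = 0.0893, adjusted 0.0893).

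**Figure D2:**
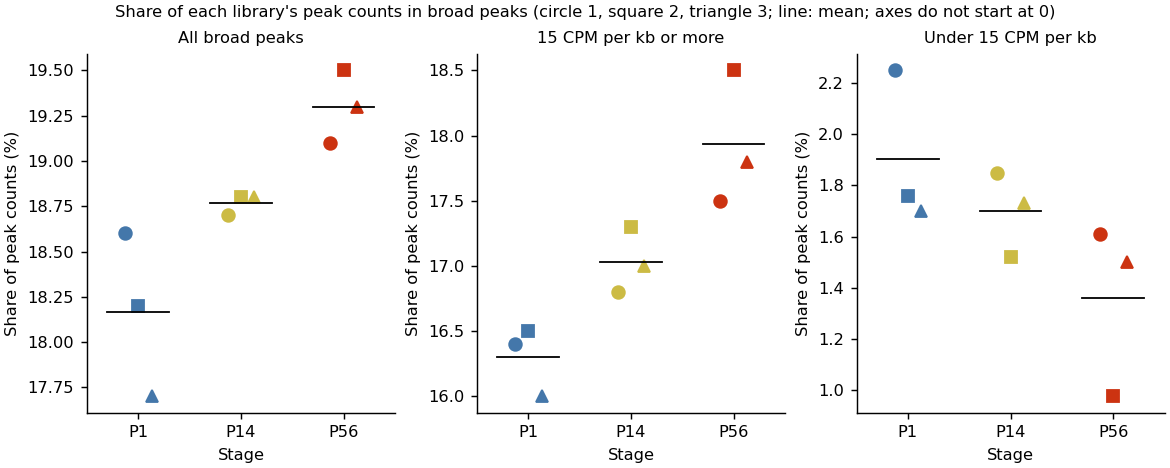
Share of each library's peak counts (y axes, percent, not starting at 0) that fell in all broad peaks (left), in members of 15 CPM per kb or more (middle) and in members under 15 CPM per kb (right), by stage (x axes), with 1 point a library and a line at the mean of 3. The left and middle panels rise without overlap from P1 to P56, to 19.3% and 18% on average, and in the right panel replicate 2 of P56 lies lowest at 0.975%.

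The libraries also differed in how far counts gathered in the strongest peaks, a difference by stage that did not pass the test. The top 10% of all peaks by mean count took 23.9%, 26.1% and 26.4% of counts at P1, 25.2%, 26.6% and 26.2% at P14, and 26.5%, 30.2% and 27.8% at P56 (exact permutation p = 0.0821, adjusted 0.0893). Replicate 1 of P1 was the lowest and replicate 2 of P56 the highest of the 9 libraries. Total counts in peaks ranged from 316311 in a P14 library to 1217798 in a P1 library. In the deposited table of start site regions, the mean scaled CPM over 10 cardiomyocyte marker genes lay between 48.1 and 102 in the P1 libraries, 75.2 and 96.6 in those of P14, and 85.3 and 219 in those of P56, against 27.8 to 32.6 over all regions. The same mean over the 9 libraries ranged from 35.2 to 46.6 for 6 fibroblast markers, from 25.8 to 37.3 for 6 endothelial, from 20.5 to 30.7 for 6 smooth muscle and pericyte, from 17.9 to 25.4 for 6 leukocyte and from 6.33 to 17.1 for 3 of 4 erythroid markers, and no marker region was at 0 in every library. The part of these differences between libraries in the results on broad peaks was not tested, and results are given below also without replicate 1 of P1 and replicate 2 of P56 together.

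From P1 to P56, 23 broad peaks rose and 13 fell, of 2113 tested (edgeR quasi-likelihood test over all 25885 tested peaks, Benjamini-Hochberg adjusted p below 0.05). This was 1.09% and 0.615% of the members. Over all peaks tested, 0.212% were called higher and 0.232% lower. Since broad peaks hold more counts, the closer background is the top 10% of peaks by mean count, of which 1.19% were called higher and 0.385% lower. Within that top 10%, 22 of 1411 members (1.56%) and 9 of 1184 other peaks (0.760%) were higher, and 9 (0.638%) and 1 (0.0845%) were lower; these shares were not tested against each other. All 3 P56 libraries lay above all 3 P1 libraries in 389 members (18.4%, against 8.54% of all peaks) and below them in 279 (13.2%, against 10.1%). The median log2 change was 0.07 over members and 0.03 over all peaks.

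The balance of rises and falls depended on the scaling. DESeq2's size factors gave 25 higher and 9 lower, library size alone 21 and 20, and loess offsets fitted against mean level 2 and 18, with the median over members at -0.08. Single libraries also moved the count: no member was called without replicate 2 of P56, 2 were called without replicate 2 of P1 and 8, all rises, without replicate 3 of P56, whereas 138 were called without replicate 1 of P56. Without both replicate 1 of P1 and replicate 2 of P56, 103 were higher and 27 lower, beside 1.56% and 1.18% of all peaks in the same fit, among them 19 of the 23 and 11 of the 13. The direction of each of the 36 held under every scaling, tool and left-out library that was run. In all 23 rises replicate 2 of P56 was the highest of the 9 libraries, and in 6 of the 13 falls it was the lowest.

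Level per kb and direction went together. In the lower range the median log2 change from P1 to P56 was -0.51 and 12.0% of members were above 0, while in the upper range it was 0.25 with 71.9% above 0. Narrower peaks split the same way around the same limit, with medians of -0.48 and 0.07. The median level of the lower range was 6.55, 5.07 and 5.05 CPM per kb in the P1 libraries, 5.21, 4.45 and 5.06 at P14, and 4.34, 2.84 and 4.30 at P56, so replicate 2 of P56 lay well below the other 2. In the upper range it was 24.7, 25.4 and 24.3, then 26.3, 27.4 and 26.4, then 28.4, 32.5 and 28.4 CPM per kb. Without replicate 1 of P1 and replicate 2 of P56 the medians of the log2 change were -0.16 and 0.15, and under loess offsets -0.39 and 0.02. By width, the median change was 0.11 from 3000 to 4000 bp, 0.10 from 4000 to 5000 bp and -0.19 above that, where most members lay in the lower range.

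**Figure D3:**
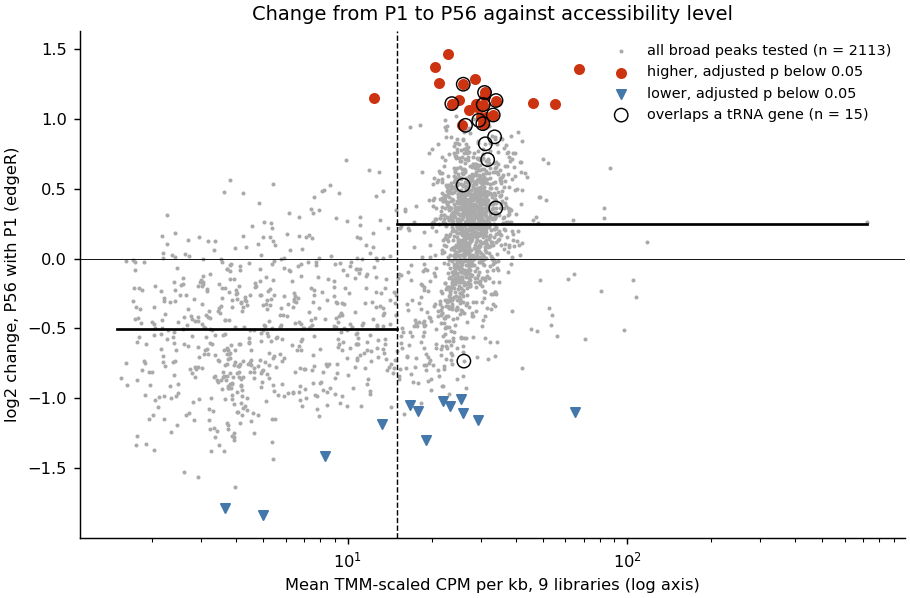
Mean TMM-scaled CPM per kb over the 9 libraries (x axis, log scale) against the edgeR log2 change from P1 to P56 (y axis) for the 2113 broad peaks tested, with called rises as filled circles, called falls as triangles, peaks over tRNA genes ringed, the limit of 15 CPM per kb dashed and the median of each range as a black bar. The median is -0.51 left of the limit and 0.25 right of it, and all but 1 of the 15 ringed peaks are above 0.

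Genes of the sarcomere, the contractile unit of striated muscle, had the most broad peaks of the gene lists. Of 31 sarcomere and myofibril genes, 20 had a broad peak within 5 kb, with 25 peaks in all, of which 4 rose from P1 to P56 and 1 fell; 24 were above 0, and the median log2 change was 0.61 against 0.07 over all members. The closer background is the range of 15 CPM per kb or more, which held these peaks. Over all members in that range the median was 0.25, with 71.9% above 0. P1 and P56 libraries did not overlap in 13 of the 25, the fall in Tnni1 among them. Over all peaks tested, the P56 libraries lay wholly above those of P1 in 8.54% and wholly below in 10.1%, and over the broad peaks in 18.4% and 13.2%. The rises were in Ttn and Tpm1, across the end of Mybpc3 and just past Tnnt2, and the fall was in Tnni1. Under loess offsets 21 were above 0 with a median of 0.32, and none of the 4 rises was called. Without replicate 1 of P1 and replicate 2 of P56, 18 were above 0 with a median of 0.19, beside 2 called rises and 2 called falls.

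The Tnni1 peak, chr1:135798107-135801854, contained RefSeq start sites of the gene at 135799421, whose promoter is printed above, and at 135799511. The annotated gene begins upstream of the peak, at 135783033, so these are internal starts. Its TMM-scaled CPM was 128, 162 and 198 at P1, 92.9, 109 and 75.8 at P14, and 97.2, 63.1 and 58.4 at P56. Every P1 library was above every P14 and P56 library, and the means fell from 163 to 92.5 and 72.9. The log2 change from P1 to P56 was -1.16 (SE 0.254, edgeR quasi-likelihood adjusted p = 0.0170), and from P1 to P14 -0.81 (adjusted p = 0.558). It was called also under loess offsets (-1.37, adjusted p = 0.00773) and without replicate 1 of P1 and replicate 2 of P56 (-1.19, edgeR adjusted p = 5.15e-05), but not without replicate 2 or 3 of either of these stages. The separately counted start site region of Tnni1 changed less, by -0.30 (edgeR adjusted p = 0.295), and which start of the gene it covers is not given here.

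On the same chromosome and 2114 bp past the end of Tnnt2, the gene of cardiac troponin T, the peak chr1:135854382-135858481 moved the other way. It held 103, 154 and 218 CPM at P1, 140, 196 and 211 at P14, and 232, 494 and 292 at P56. The P56 libraries were all above the P1 libraries and were led by replicate 2, while P14 overlapped P1. The log2 change from P1 to P56 was 1.11 (SE 0.248, edgeR adjusted p = 0.0202), and it was 0.48 (edgeR adjusted p = 0.126) without replicate 1 of P1 and replicate 2 of P56. Per kb, the Tnni1 peak went from 43.5 to 19.5 and the Tnnt2 peak from 38.6 to 82.8 CPM.

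**Figure D4:**
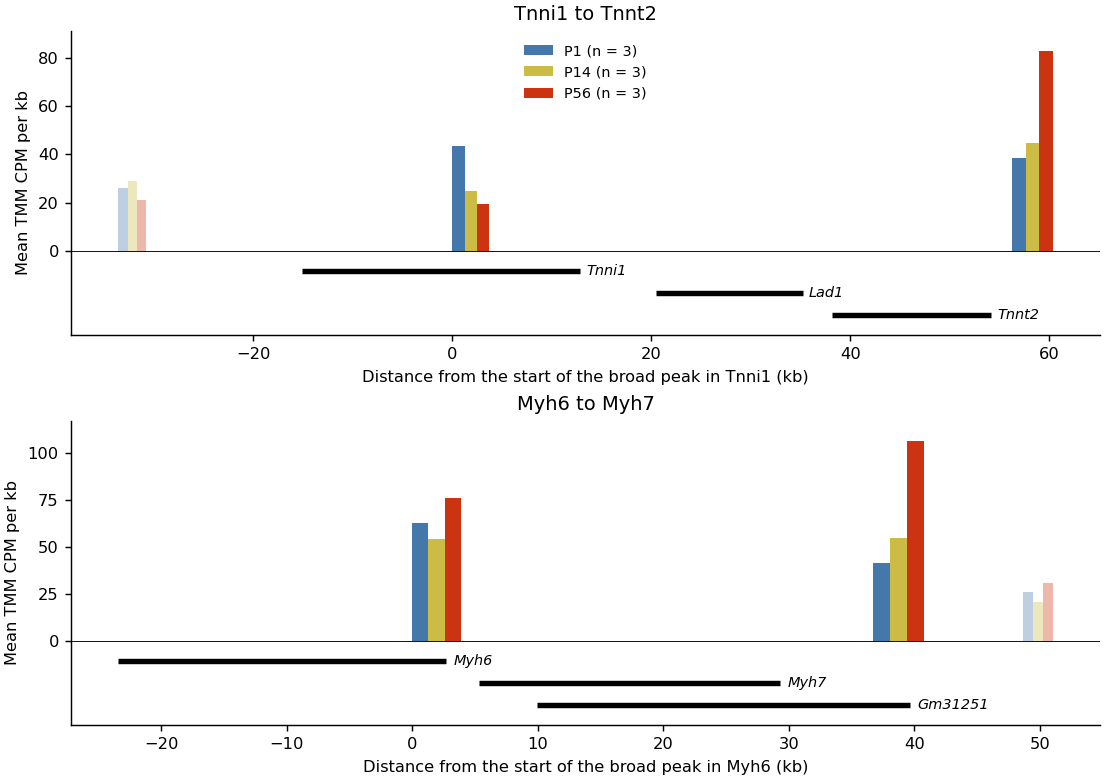
Mean TMM-scaled CPM per kb (y axes) at P1, P14 and P56 (3 bars a peak, n = 3 each, drawn over the peak's width) along the Tnni1 to Tnnt2 region (top) and the Myh6 to Myh7 region (bottom), by distance in kb from the start of the broad peak in Tnni1 and in Myh6 (x axes), with pale bars for peaks under 3000 bp and black lines for genes. The Tnni1 peak falls from 43.5 to 19.5 while the peak past Tnnt2 rises from 38.6 to 82.8, and the peak upstream of Myh7 rises from 41.6 to 106 CPM per kb.

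The cardiac myosin heavy chain locus on chromosome 14 held 2 broad peaks. The peak chr14:55002040-55006120 overlapped the long noncoding RNA gene Gm31251 and lay 7414 bp upstream of Myh7, the slow β-myosin heavy chain. It held 102, 190 and 218 CPM at P1, 174, 246 and 246 at P14, and 290, 650 and 357 at P56. It had the smallest adjusted p of the broad peaks in this comparison (log2 change 1.36, SE 0.250, edgeR adjusted p = 0.00368), stayed called under loess offsets (1.05, edgeR adjusted p = 0.0412) and was lost only without replicate 2 of P56 among the left-out libraries. Without that library and replicate 1 of P1 together, the change was 0.66 (edgeR adjusted p = 0.0224). The peak at Myh6, the adult fast α-myosin heavy chain, had means of 243, 211 and 293 CPM and a log2 change of 0.28 that did not pass (edgeR adjusted p = 0.601).

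Other sarcomere peaks rose inside genes rather than at starts. In Ttn, the gene of titin, chr2:76967512-76971144 lay 11403 bp from the start site and held 48.5, 53.3 and 43.4 CPM at P1, 59.6, 56.0 and 88.4 at P14, and 90.6, 155 and 96.9 at P56. The stages of P1 and P56 were fully apart (log2 change 1.26, SE 0.267, edgeR adjusted p = 0.0153), and the change was 0.97 (edgeR adjusted p = 0.00833) without replicate 1 of P1 and replicate 2 of P56. A further Ttn peak and one just past its 3′ end had changes of 0.94 and 0.99 (edgeR adjusted p = 0.0694 and 0.0577). At Mybpc3, the cardiac myosin-binding protein C gene, the peak chr2:91136479-91139847, which touches the end of the gene and lies mostly in Madd, held 90.5, 101 and 110 CPM at P1, 133, 165 and 148 at P14, and 151, 300 and 197 at P56. Here P14 was above P1 in every library (log2 change P56 with P1 1.11, SE 0.242, edgeR adjusted p = 0.0168), and the peak at the Mybpc3 start had a change of 0.61 (edgeR adjusted p = 0.192). In Tpm1, α-tropomyosin, the called peak rose by 1.06 (SE 0.250, edgeR adjusted p = 0.0273), and the change was 0.55 (edgeR adjusted p = 0.112) without those 2 libraries. At the other end of the list, peaks at Actc1, Myom2 and Myh6 had changes from 0.17 to 0.33.

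**Figure D5:**
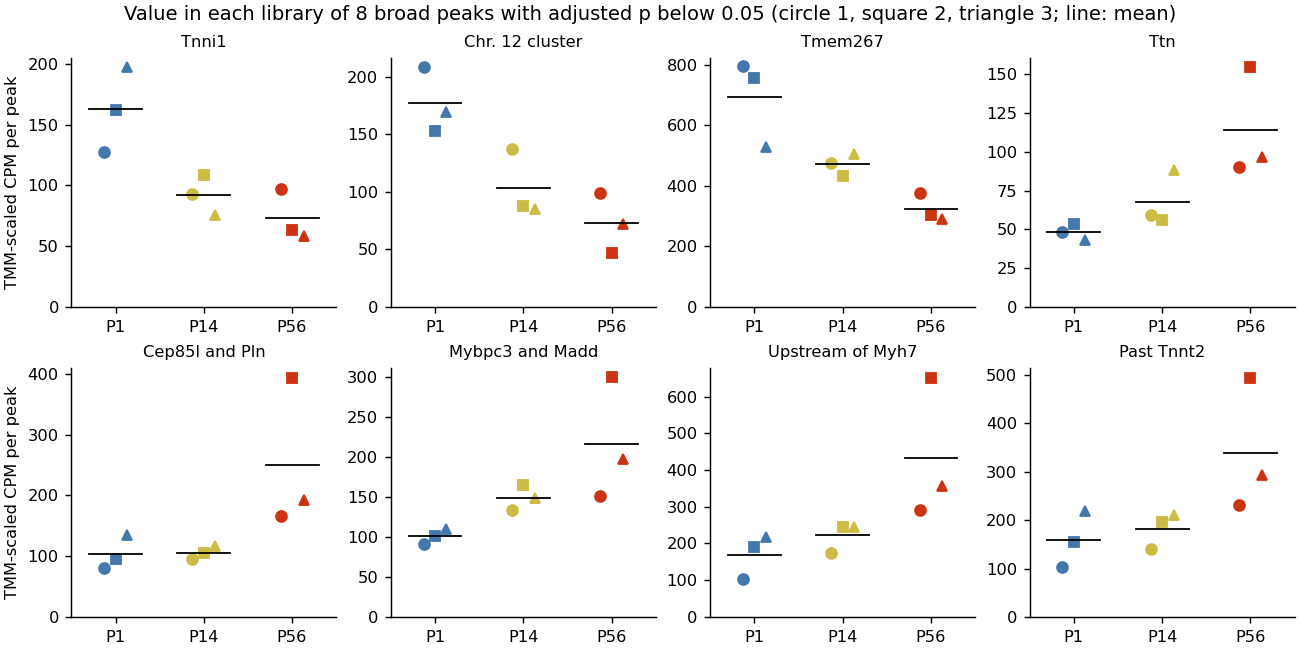
TMM-scaled CPM (y axes, from 0) of 8 broad peaks in each library at P1, P14 and P56 (x axes), with circles for replicate 1, squares for replicate 2, triangles for replicate 3 and lines at the mean of 3. The peaks at Tnni1, in the chromosome 12 cluster and beside Tmem267 are lower in every P56 than in every P1 library, and in the 5 rising peaks the square of P56 is the highest point.

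Of 23 calcium and ion handling genes, 10 had a broad peak within 5 kb, with 20 peaks, of which 1 rose and none fell; 18 were above 0 and the median was 0.39. Without replicate 1 of P1 and replicate 2 of P56, 16 were above 0 with a median of 0.17, and 1 was called higher and 1 lower. Under loess offsets 14 were above 0 with a median of 0.16. The rise was at Pln, the gene of phospholamban, which restrains the calcium pump of the sarcoplasmic reticulum. Its peak, chr10:53344736-53350098, overlaps the end of Pln within Cep85l and held 80.6, 95.4 and 135 CPM at P1, 94.7, 106 and 117 at P14, and 167, 394 and 192 at P56. P1 and P14 overlapped and all P56 libraries were higher (P56 with P1: log2 change 1.28, SE 0.253, edgeR adjusted p = 0.00937; P14 with P1: 0.02, edgeR adjusted p = 0.998). The change was 0.62 (edgeR adjusted p = 0.0525) without replicate 1 of P1 and replicate 2 of P56. The 3 peaks of Jph2, a junctophilin that ties the cell membrane to the calcium store, had changes from 0.45 to 0.66, the 4 of the potassium channel gene Kcnh2 from -0.17 to 0.40, and the 1 of Kcne1 had -0.44; none of these passed the test.

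Metabolic genes followed. Of 39 oxidative and fuel metabolism genes, 13 had a broad peak within 5 kb, and of these 17 peaks 1 rose, none fell and all 17 were above 0, with a median of 0.48; 11 of 17 were above 0, with a median of 0.08, without replicate 1 of P1 and replicate 2 of P56. Under loess offsets all 17 were above 0 with a median of 0.20, and 0 were called. The rise was at Atp5a1, the α subunit of ATP synthase, where chr18:77781596-77787628 held 123, 89.9 and 99.9 CPM at P1, 110, 118 and 136 at P14, and 166, 326 and 194 at P56. All P56 libraries were above all others (log2 change 1.13, SE 0.243, edgeR adjusted p = 0.0165; 0.91, edgeR adjusted p = 0.00227, without replicate 1 of P1 and replicate 2 of P56). The Atp5a1 peak was not called under loess offsets (0.83, edgeR adjusted p = 0.0886) or among peaks with a mean count of at least 20. Slc2a4, the insulin-responsive glucose transporter, had a change of 0.85 (edgeR adjusted p = 0.0632), the muscle cytochrome oxidase subunit gene Cox6a2 0.80 (edgeR adjusted p = 0.118) and citrate synthase, Cs, 0.78 (edgeR adjusted p = 0.144).

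Further rises lay outside the lists. Alpl, a tissue alkaline phosphatase, had 69.1, 58.8 and 55.7 CPM at P1, 119, 106 and 120 at P14, and 105, 183 and 120 at P56 in its peak chr4:137767406-137770752. Here P14 had already left the range of P1 (P14 with P1: log2 change 0.91, edgeR adjusted p = 0.470; P56 with P1: 1.16, SE 0.253, edgeR adjusted p = 0.0168). Peaks in Dgat2, which makes triglycerides, and at Bdh1 rose by 1.08 and 0.95 (edgeR adjusted p = 0.0248 and 0.0455). The start site region of Bdh1 changed by 0.29 (edgeR adjusted p = 0.439). That of Gm15743, which also has a start in this peak, changed by 1.35 (edgeR adjusted p = 0.0466). Bdh1 has a further RefSeq start outside the peak, at 31422297, and which start its region covers is not given here. The peak of Gm51959, 3814 bp from Ankrd9, and that of Csdc2, an RNA-binding cold shock protein, rose by 1.01 and 1.02 and had similar values, 1.08 and 1.03, without replicate 1 of P1 and replicate 2 of P56. A peak with no overlapping gene, chr4:154824683-154828744, 8564 bp from Ttc34, rose by 1.1, and the change was 0.96 without those 2 libraries. Under loess offsets the peaks of Alpl, Dgat2, Bdh1, Gm51959, Csdc2 and near Ttc34 were not called. Leaving out each of the 9 libraries in turn kept the call in 6 fits for Alpl and for the peak near Ttc34. The call was kept in 5 for Dgat2 and Gm51959 and in 2 for Bdh1 and Csdc2.

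The largest rise was on chromosome 18 in Mib1, a ubiquitin ligase of the Notch pathway, and in Mir133a-1hg, the host gene of the muscle microRNA miR-133a. The peak, chr18:10778866-10782655, held 56.8, 39.9 and 73.7 CPM at P1, 49.1, 52.9 and 37.9 at P14, and 90.6, 258 and 119 at P56. All P56 libraries were above the other 6, and P14 overlapped P1. The log2 change was 1.46 from P1 to P56 (SE 0.276, edgeR adjusted p = 0.00526) and 1.75 from P14 to P56 (SE 0.315, edgeR adjusted p = 0.00901). It was the only broad peak called between P14 and P56, where 0.00773% of all peaks were called higher and 0% lower. The rise from P1 was not called without replicate 2 of P56 or replicate 2 of P1, and that from P14 not without replicate 1 or 3 of P14 or replicate 2 of P56. Without replicate 1 of P1 and replicate 2 of P56 together the changes were 0.83 (edgeR adjusted p = 0.0231) and 1.13 (edgeR adjusted p = 0.0513).

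Broad peaks over transfer RNA genes formed a group that was chosen after the values were seen, so its counts are a description. Transfer RNA genes are short, are read by RNA polymerase III and often lie in clusters. There were 15 such members over 49 tRNA genes; 7 rose, none fell, 14 were above 0 and the median log2 change was 0.96. The median was 0.15 from P1 to P14 and 0.77 from P14 to P56. Of 70 narrower peaks over tRNA genes, 67 were above 0 with a median of 0.57, and 10 were called higher. Without replicate 1 of P1 and replicate 2 of P56 the broad ones kept 14 of 15 above 0 with a median of 0.53, 7 of them called. Under loess offsets 14 were above 0 with a median of 0.73, while none was called higher and 1 was called lower. The largest rise was at chr19:12008581-12012854, over 6 tRNA genes, with 54.3, 78.8 and 84.3 CPM at P1, 82.4, 62.3 and 123 at P14, and 98.5, 245 and 169 at P56 (log2 change 1.25, SE 0.264, edgeR adjusted p = 0.0153). P14 overlapped both other stages there. The cluster on chromosome 11 gave rises of 1.03 at Ctc1, a telomere maintenance gene, and 0.96 at Hes7, whose start site region rose by 0.94 (edgeR adjusted p = 0.0370). At Fbxo31 the peak rose by 1.13 and the start site region by 1.18 (edgeR adjusted p = 0.0168 and 0.00101). The exception below 0 was chr13:23406974-23413315, with means of 209, 161 and 126 CPM (-0.73, edgeR adjusted p = 0.113).

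The 13 falls lay mostly away from protein-coding genes. Of these, 9 overlapped no gene and 2 a protein-coding gene, and 12 of 13 had a P14 mean between those of P1 and P56. Besides Tnni1, 3 lay in 1 cluster on chromosome 12 and 3 in 1 on chromosome 3. Across chr12:18101107-18390549, near the zinc finger gene Zfp996, all 7 broad peaks were below 0, with log2 changes from -1.30 to -0.63. Its strongest, chr12:18374305-18380461, held 208, 153 and 169 CPM at P1, 137, 87.2 and 85.2 at P14, and 98.5, 47.1 and 71.8 at P56. P1 was above P14 and P56 in every library (-1.30, SE 0.258, edgeR adjusted p = 0.00937; -0.90, edgeR adjusted p = 0.00450, without replicate 1 of P1 and replicate 2 of P56; -1.53, edgeR adjusted p = 0.00773, under loess offsets). This fall was not called with replicate 2 or replicate 3 of P56 left out alone.

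Across chr3:93621063-93874222, around the BTB domain genes Tdpoz3 and Tdpoz4, all 8 broad peaks were below 0, with changes from -1.41 to -0.29. The called ones changed by -1.41, -1.09 and -1.05 (edgeR adjusted p = 0.0374, 0.0385 and 0.0491). Peaks within a cluster are neighbours and may share near-identical sequence, which the authors' counting could split, so they are not independent of each other. The largest falls were in the thinly covered range, at chr2:138620987-138624496 in the long noncoding RNA gene Gm14061 (means of 28.3, 16.3 and 7.80 CPM, log2 change -1.83, edgeR adjusted p = 0.0195) and at chr12:51309575-51314996 (25, 26.5 and 7.54 CPM, -1.78, edgeR adjusted p = 0.0303).

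The fall with the most counts was at the end of Tmem267. The peak chr13:119610223-119617879 held 797, 757 and 530 CPM at P1, 475, 433 and 505 at P14, and 377, 304 and 292 at P56. The stages did not overlap (log2 change P56 with P1 -1.10, SE 0.223, edgeR adjusted p = 0.00947), and the fall was called under loess offsets (-1.38, edgeR adjusted p = 0.00162) and without replicate 1 of P1 and replicate 2 of P56 (-0.93, edgeR adjusted p = 0.000323). It was not called with replicate 2 of P1, replicate 2 of P56 or replicate 3 of P56 left out alone.

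From P1 to P14 no broad peak passed the test, and over all peaks 0.00773% were called higher and 0% lower. At an unadjusted p below 0.05 edgeR gave 65 members higher (3.08%, against 3.27% of all peaks) and 70 lower (3.31%, against 2.77%), which is near the background, and DESeq2 and limma-voom also called none. Without replicate 1 of P1 and replicate 2 of P56, however, 81 were higher and 29 lower, beside 2.25% and 1.87% of all peaks. No member passed the test of whether P14 departed from the middle of P1 and P56, which 0.00773% of all peaks passed with P14 above it. At an unadjusted p below 0.05 there were 84 members with P14 above it (3.98%, against 5.11% of all peaks) and 44 below it (2.08%, against 3.6%). Among the called rises the P14 mean lay between the others in 21 of 23, and the later interval was the larger in 17, with median changes of 0.37 from P1 to P14 and 0.70 from P14 to P56. Among the falls the medians were -0.56 and -0.56. These intervals share the P14 libraries, and the members were picked on P56 with P1.

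The remaining lists held few broad peaks, of which 1 was called, and most of their medians were nearer to 0 without replicate 1 of P1 and replicate 2 of P56. Of 33 stress and immediate early genes 9 had broad peaks, with 9 of 10 above 0 and a median of 0.37; without those 2 libraries 4 of 10 were above 0 with a median of -0.00. Dusp1, a phosphatase of the MAP kinases, had 0.69 (edgeR adjusted p = 0.150). All 5 peaks at clock and hormone receptor genes were above 0, and 3 without those 2 libraries, with medians of 0.29 and 0.05. Among them Tef held 56.8, 108 and 134 CPM at P1, 89.4, 115 and 107 at P14, and 134, 229 and 182 at P56 (0.87, edgeR adjusted p = 0.0814) and Dbp had a change of 0.71 (edgeR adjusted p = 0.144), both of them output regulators of the clock. All 8 at chromatin genes were above 0, from 0.09 to 0.70 with a median of 0.32, and 5 of 8 with a median of 0.19 without those 2 libraries. Of 27 cardiac transcription factor genes only Mef2d and Prdm16 had broad peaks, with changes from -0.10 to 0.35, of which 4 of 5 were above 0, and 2 of 5 without those 2 libraries. At 34 cell cycle genes there were 5 peaks, with the tRNA cluster near Aurkb as the rise and the 2 peaks of Cdk6, a kinase of the G1 phase, at -0.30 and -0.12. Of 65 HOX and homeobox genes 1, Lhx2, had a broad peak within 5 kb (-0.34, edgeR adjusted p = 0.553), 3 growth and signalling peaks had changes from 0.30 to 0.48, and the 1 peak of the ribosomal protein genes, at Rpl3, had 0.42. Without those 2 libraries the direction turned at Lhx2 (0.19) and Rpl3 (-0.11), and 2 of the 3 growth and signalling peaks were above 0. Under loess offsets 8 of 10 stress, 3 of 5 clock, 4 of 8 chromatin and 2 of 5 transcription factor peaks were above 0. For scale, the main fit gave a median of 0.25 over all members of 15 CPM per kb or more.

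Of 10 cardiomyocyte markers 8 had broad peaks, 12 in all, of which 3 rose, and all 12 were above 0 with a median of 0.73. Of the 12, 7 were above 0, with a median of 0.13, without replicate 1 of P1 and replicate 2 of P56. In that fit 1 was called higher and 1 lower. Under loess offsets 10 were above 0 with a median of 0.43, and 0 were called. No fibroblast, endothelial, smooth muscle or erythroid marker had a broad peak within 5 kb, and of 6 leukocyte markers 1, Cd68, had one, with 0.59 (edgeR adjusted p = 0.226). Over 558 pairs of a broad peak and a gene start inside it, 488 (87.5%) had the same sign of change from P1 to P56 in both deposited tables, which count overlapping reads of the same libraries.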

How the data were processed

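Nuclei of pooled CD1 hearts were profiled by ATAC-seq in 9 libraries, 3 each at P1, P14 and P56. The authors deposited raw counts of reads per peak region and per start site region, with 1 column a library. Tools named, per the submitters' processing notes, include MACS 1.4.0, featureCounts 1.4.2, BWA 0.7.10, bedtools 2.26, SAMtools 1.3.1 and bcl2fastq 2.17.1.14, with GRCm38 as the build. Whether peaks were called on pooled libraries, how reads with several matches were placed and whether cut sites were shifted are not given in the sources used here. Coordinates are printed as the peak table gives them.

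Counts were fitted over the whole peak table in R 4.3.3 with edgeR 4.0.16, using TMM scaling, filterByExpr by stage, 1 coefficient per stage and the two-sided quasi-likelihood test, with Benjamini-Hochberg adjustment over 25885 of 25915 peaks. The start site table was fitted alike. Every adjusted p is from edgeR unless another tool is named, and SE is the log2 change divided by the root of the F statistic. Single values per library were compared by an exact permutation test, with F recomputed for every way of placing the libraries in stages. DESeq2 1.42.0 and limma 3.58.1 served as alternatives. The fits were tested on simulated data.

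Genes and start sites came from RefSeq on GRCm38.p6, and all 392 genes of the 17 lists had a position. Peaks named by rule were the 8 widest, the 8 highest per kb, up to 6 of the largest called rises and falls per comparison (or the 3 smallest p where none passed), those at the width limit and, for each list, up to 4 by smallest p within 5 kb of its genes. The members, lists and rules were chosen with earlier results of these data known. The other called peaks and list members, the limit of 15 CPM per kb, the peaks over tRNA genes, and the alternatives without replicate 1 of P1 and replicate 2 of P56, without the ribosomal RNA peak and by medians were chosen after the values were seen. The other alternatives were scalings, filters, tests, stages in the fit, the replicate block, thresholds, width minimums and each library left out. The broad peaks at 1 further gene are counted in the totals and are not reported here.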

Additional observations from a re-analysis of the deposited data

How the results depend on the processing

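Of the broad peaks called between P56 and P1, 36 in all, the count was 20 under loess offsets, 23 with a mean count of at least 20, 55 with DESeq2's Wald test, 16 with the 2 stages alone, 130 without both replicate 1 of P1 and replicate 2 of P56, 7 at an adjusted p below 0.01, and 58 and 20 at width minimums of 2000 and 4000 bp. The higher ones numbered 2, 11, 42, 12, 103, 5, 36 and 13 in that order. The lower ones numbered 20 by library size, 5 with limma-voom, 4 with the 2 stages alone, 27 without both libraries, 2 at 0.01, and 22 and 7 at the other widths. Leaving out 1 library gave from 0 (without replicate 2 of P56) to 138 (without replicate 1 of P56) calls, with 0 to 91 higher and 0 to 47 lower; the lower ones were 1 without replicate 2 of P1, 0 without replicate 3 of P56, 7 without replicate 1 of P14 and 6 without replicate 3 of P14. From P1 to P14 there were 2 calls with the 2 stages alone, 110 without both libraries, 1 at 2000 bp, and 0 to 3 with 1 library left out. Between P14 and P56 there were 5 with the 2 stages alone, 0 under loess offsets, with a mean count of at least 20, with DESeq2's Wald test, with limma-voom, without both libraries and at 4000 bp, and 0 to 42 with 1 library left out. The median log2 change from P1 to P56 was -0.00 by library size, -0.08 under loess offsets, -0.04 at 4000 bp and 0.01 to 0.09 with 1 library left out, and from P14 to P56 it was -0.07 under loess offsets and -0.04 at 4000 bp. The cause of these moves was not tested. The share of all peaks called is given above only for the main fit and the fit without both libraries. In the other fits, a change in member calls cannot be told apart from one over all peaks. With the replicate block, 170 members were called from P1 to P56 (100 higher and 70 lower), 1 from P1 to P14 and 12 from P14 to P56; same-numbered libraries correlated in their deviations at -0.178 to 0.444, so the numbers were not taken as pairs. The share of counts and the level relative to narrower peaks kept direction and side of the threshold in all alternatives run. These were width minimums, peaks or libraries left out and, for the level, medians. Loess offsets, under which the balance of member calls changed, were not applied to these quantities. Over the peaks called, 463 refits of a single peak kept its call, 238 lost it and none changed its sign; peaks that were not called did change sign, as the gene lists show. The P14 libraries held the fewest counts in peaks, from 316311 to 559445, and the part of this in the comparisons with that stage was not tested.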
